A study of Homo sapiens with 5 samples.

Results

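Genes with a LINC number, the placeholder symbol given to a long intergenic noncoding RNA that has no established function, were followed in RNA bound to PSF. The deposited table of 25702 genes named 574 such genes, chosen as LINC followed by digits and nothing after. A total of 90 of them reached a mean of at least 1 CPM (counts per 1000000 counts of a library) over the 5 libraries and make up the set described here. Of the other 484, 388 had 0 counts in all 5 libraries. The mean count chose the set, so its level is a description only.

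The RNAs came from LTAD, a human prostate cancer cell line held without phenol red in medium with 10% charcoal-stripped serum, which is low in androgen. They were recovered with PSF by immunoprecipitation and sequenced (RIP-seq). Cells received the DMSO vehicle or 5 µM of the small molecule No.10-3, whose identity the labels give by code only. There were 3 PSF-RIP libraries, 1 with vehicle and 2 with No.10-3 (replicates 1 and 2), and 2 input libraries. One input is from vehicle and 1 from No.10-3 cells, but their columns do not say which, so they served jointly as one reference and are called the deeper and the shallower input. The 2 columns taken as No.10-3 PSF-RIP carry the compound's name alone and were assigned by elimination. The labels give no immunoprecipitation with a control antibody, so nonspecific recovery on the beads was not measured here. They do not say whether the libraries came from separate cultures, so p-values measure only the spread between these libraries, which may be technical.

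PSF, encoded by SFPQ, is a nuclear protein of the DBHS family that binds RNA and DNA. With NONO and PSPC1 it belongs to paraspeckles, the nuclear bodies assembled on the long noncoding RNA NEAT1. Long noncoding RNAs are transcribed by RNA polymerase II and mostly spliced and polyadenylated like mRNAs, and many are held in the nucleus, where PSF resides. The question named in the title is whether RNA binding by PSF can be altered with a small molecule.

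The libraries held 1519362 to 4010376 counts over genes. The 5 abundant small RNAs RN7SK, RN7SL1, RN7SL2, RPPH1 and RMRP took 51.7% and 55.0% of the input counts, against 2.63% to 7.81% of the PSF-RIP counts. Messenger RNAs of the mitochondrial genome took 24.4% and 26.2% of the inputs and 6.90% to 12.1% of the PSF-RIP libraries. All 9 luminal prostate markers listed were counted, with a summed level of 1699 to 1960 CPM per library after the scaling described next, while the 3 leukocyte markers were at 0 and the 3 basal markers summed to at most 0.578 CPM. The 4 stromal markers, nearly all from COL1A1, summed to 9.66 and 5.33 CPM in the inputs and 24.8 to 39.1 CPM in PSF-RIP, and their part in the results against input was not tested.

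The choice of scale decided the direction in which the LINC RNAs as a whole stood against input. As a plain share of all counts they took more of every PSF-RIP library. The 90 members held 0.0392% of the counts of the deeper input (95% Wilson interval 0.0373 to 0.0412%) and 0.0351% of those of the shallower input (0.0331 to 0.0373%). They held 0.136% with vehicle (0.132 to 0.141%), 0.139% in No.10-3 replicate 1 (0.133 to 0.145%) and 0.133% in No.10-3 replicate 2 (0.129 to 0.136%). These intervals cover counting error only, and the 3 PSF-RIP intervals overlap one another. Most other genes also took a larger share of PSF-RIP, with a median log2 difference of 2.42 over all 13321 genes tested, against 2.05 over the members.

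Scaled with edgeR's TMM factors, which place the bulk of the genes at equal level in all libraries, the order turned. Values below are CPM on this scale unless another is named. The members summed to 1011 CPM in the deeper input and 963 CPM in the shallower input. In PSF-RIP they summed to 709 CPM with vehicle, 782 in No.10-3 replicate 1 and 644 in replicate 2, all below both inputs. A direction against input therefore means here a direction relative to the other genes.

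**Figure D1:**
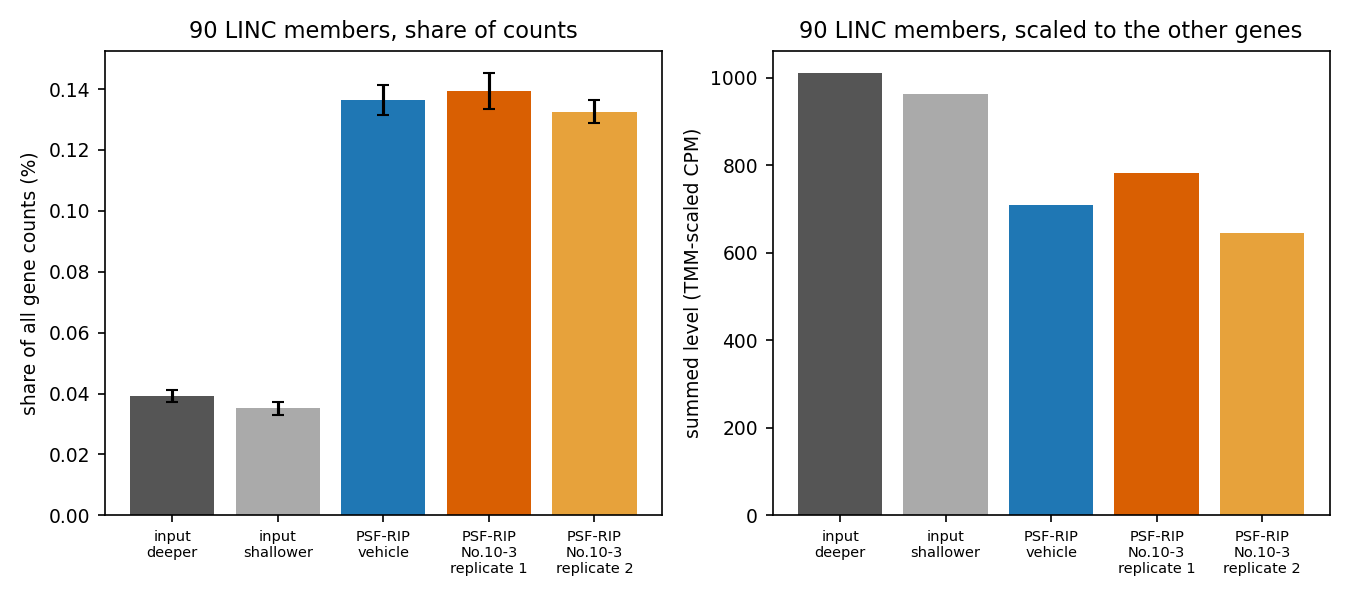
Left, share of all gene counts taken by the 90 LINC members in each of the 5 libraries, in percent, with 95% Wilson intervals. Right, the summed level of the same members in TMM-scaled CPM, 1 bar per library. The share is 0.0351% and 0.0392% in the inputs and 0.133% to 0.139% in PSF-RIP, while the scaled sum is 963 and 1011 CPM in the inputs and 644 to 782 CPM in PSF-RIP.

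Against input, 12 LINC RNAs were lower in PSF-RIP and 1, LINC00898, was higher, past an adjusted p of 0.05 by edgeR's quasi-likelihood test over all 13321 genes. That is 13.3% and 1.11% of the members. Over all genes tested, 10.4% were called lower and 10.0% higher. How the share called lower compared with this background moved with single libraries. It was 11.1% of members against 6.06% of all genes without the deeper input, 6.52% without vehicle and 6.34% without No.10-3 replicate 1. It was 4.44% against 3.96% without the shallower input and 16.7% against 18.2% without No.10-3 replicate 2. The share called higher was below that of all genes in each of these fits, where all genes ran from 0.661% without the shallower input to 18.2% without No.10-3 replicate 2. The members also have fewer counts, with a median of 4.35 CPM (plain CPM, mean of 5 libraries) against 20.0 over all genes. Among genes under 10 plain CPM, 0 of 68 members were called higher (1.68% of all such genes) and 7 were called lower (10.3%, against 8.29%). Among genes at 10 plain CPM or more, 1 of 22 members was called higher (4.55%, against 13.8%) and 5 lower (22.7%, against 11.3%). The difference between the members and other genes was not tested.

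The median log2 difference of PSF-RIP from input was -0.26 over the members and 0.08 over all genes tested. Against the mean of the inputs, the median member stood at -0.22 with vehicle, 0.0049 in No.10-3 replicate 1 and -0.25 in replicate 2. Of the members, 61.1% had a difference below 0, against 47.1% of all genes. The medians of 206 antisense RNAs (-0.71), 258 other long noncoding RNAs (-0.64) and 11817 protein-coding genes (0.14) place the LINC RNAs between the mRNAs and the other long noncoding RNAs. Members also passed the level filter more through PSF-RIP, since 31 of 90 were below 1 plain CPM over the inputs and 1, LINC00844, over PSF-RIP. Over the 59 members at 1 plain CPM or more in the inputs the median was -0.55, with -0.01 for all genes chosen the same way. Choosing by the input level favours genes high in input, which lowers this difference by itself. Members lie nearer that limit than most genes, so the 2 medians are not a like comparison.

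**Figure D2:**
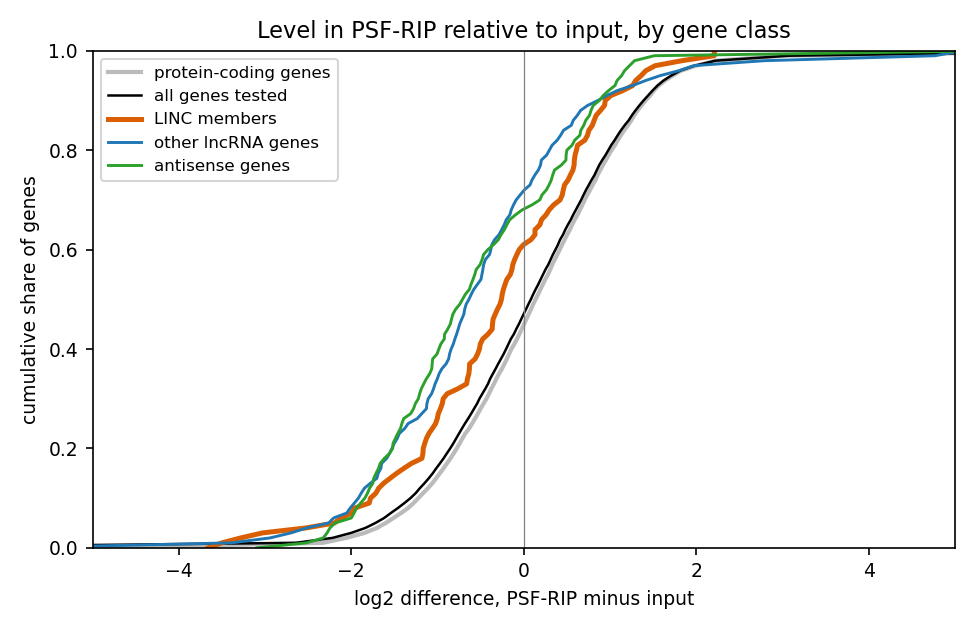
Cumulative share of genes (vertical axis) at or below each log2 difference of PSF-RIP from input (horizontal axis, edgeR fit with TMM scaling), for the 90 LINC members, antisense genes, other long noncoding RNA genes, protein-coding genes and all 13321 genes tested. At the median the LINC curve (-0.26) lies between the protein-coding genes (0.14) and the other long noncoding classes (-0.64 and -0.71), while the curves meet or cross in the tails.

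The most abundant LINC RNA per length was among those lower in PSF-RIP. LINC01278 stood at 134 CPM in the deeper input and 151 in the shallower one, and at 42.4 CPM with vehicle, 58.1 in No.10-3 replicate 1 and 50.1 in replicate 2. All 3 PSF-RIP values lay far below both inputs, with a log2 difference of -1.51 (SE 0.35, adjusted p = 0.00469). The call was lost without the shallower input (adjusted p = 0.0672). LINC00674, the other abundant RNA of this group, stood at 109 and 101 CPM in the inputs and at 38.4, 51.0 and 65.4 CPM in PSF-RIP (vehicle, then No.10-3 replicates 1 and 2). Its difference of -1.03 (SE 0.35, adjusted p = 0.0408) lay closest to the threshold. Without the deeper input, the shallower input, the vehicle library or No.10-3 replicate 1 it was not called, with adjusted p of 0.216, 0.191, 0.138 and 0.114. In the RefSeq annotation of a later assembly LINC00674 overlaps the pseudogenes LRRC37A16P and SH3GL1P3, so its reads are uncertain.

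LINC00938 stood at 30.3 and 39.1 CPM in the deeper and shallower input and at 7.39, 13.7 and 13.4 CPM in the vehicle and the 2 No.10-3 libraries. The PSF-RIP values did not reach those of either input (log2 difference -1.59, SE 0.40, adjusted p = 0.00822, or 0.116 without the shallower input). LINC00467, an RNA reported to encode a small mitochondrial protein, stood at 22.5 and 24.9 CPM in the inputs and at 8.82, 4.81 and 7.80 CPM in PSF-RIP. It was lower by -1.70 on the log2 scale (SE 0.42, adjusted p = 0.00744, or 0.0737 without the shallower input). LINC00909, now named ZNF407-AS1 in RefSeq, stood at 22.5 and 16.0 CPM in the inputs and 6.44, 5.92 and 9.10 CPM in PSF-RIP (log2 difference -1.41, adjusted p = 0.0227). It was called without No.10-3 replicate 2 but not without any other single library, where adjusted p ran from 0.0595 (vehicle left out) through 0.0740 (shallower input) and 0.0754 (No.10-3 replicate 1) to 0.252 (deeper input). LINC00648 stood at 25.8 and 15.1 CPM in the inputs and at 2.62, 6.66 and 8.52 CPM in vehicle and No.10-3 replicates 1 and 2. Its vehicle value was the lowest of the 5 libraries (log2 difference -1.78, SE 0.47, adjusted p = 0.0118, or 0.184 without the deeper input).

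The widest differences from input were those of scarce RNAs. LINC00844, an androgen-regulated RNA of the prostate, had 5 and 12 counts in the deeper and shallower input, and 1 with vehicle, 1 in No.10-3 replicate 1 and 5 in replicate 2. That is 3.22 and 10.7 CPM in the inputs against 0.238, 0.370 and 0.722 CPM in PSF-RIP, a log2 difference of -3.66 (SE 0.77, adjusted p = 0.00241). The inputs themselves lay over 2-fold apart for this RNA, and it was not called without the shallower one (log2 difference -2.64, adjusted p = 0.133). LINC00324 had 25 and 15 counts in the inputs against 2, 5 and 11 in PSF-RIP, or 16.1 and 13.3 CPM against 0.477, 1.85 and 1.59 CPM. Its difference of -3.48 (SE 0.55) had the smallest adjusted p of the members, 1.50e-04. RefSeq lists 4 transfer RNA genes that overlap LINC00324, and the part of their reads in its counts was not tested.

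LINC00115 stood at 11.6 and 8.89 CPM in the inputs and 0.715, 2.22 and 0.722 CPM in PSF-RIP (log2 difference -3.22, adjusted p = 0.00110). LINC01560, which overlaps the gene of the zinc finger protein ZNF41, stood at 7.08 and 8.002 CPM in the inputs, with 4, 0 and 10 counts in PSF-RIP (log2 difference -2.94, adjusted p = 0.00561). LINC01011, which overlaps NQO2-AS1, stood at 8.37 and 19.6 CPM in the inputs and 2.86, 2.59 and 3.32 CPM in PSF-RIP (log2 difference -2.18, adjusted p = 0.00498, or 0.217 without the shallower input). LINC00882 had 5 and 10 counts in the inputs and 4, 4 and 9 in PSF-RIP, where the same number of counts stands for a lower level because those libraries are larger on this scale (log2 difference -2.20, adjusted p = 0.0245). Its adjusted p was 0.413 without the shallower input, 0.0625 without vehicle and 0.0503 without No.10-3 replicate 1. All 12 RNAs called lower had every PSF-RIP value below both inputs. A total of 8 of the 12 overlap another RefSeq gene, as do 52 of the 90 members, 18 of them a protein-coding gene. Over the 38 members that overlap none, the median log2 difference was -0.0797.

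LINC00898 was the 1 member higher in PSF-RIP. It had 9 counts in each input, or 5.79 and 8.002 CPM, and 22.9 CPM in vehicle PSF-RIP, 27.4 in No.10-3 replicate 1 and 18.2 in replicate 2. The groups did not overlap, and the log2 difference was 1.73 (SE 0.47, adjusted p = 0.0132). It missed the threshold when either input was left out, with adjusted p of 0.162 without the deeper and 0.0810 without the shallower input. RefSeq lists no gene overlapping LINC00898.

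**Figure D3:**
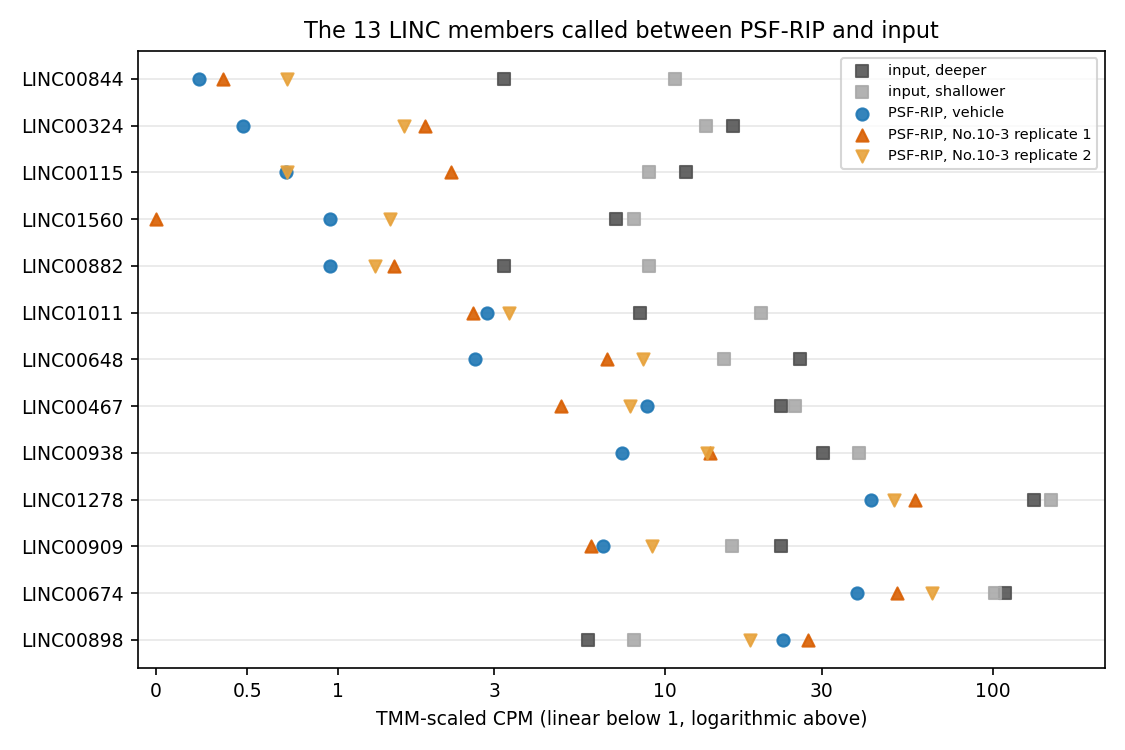
Level of the 13 LINC RNAs called between PSF-RIP and input, in TMM-scaled CPM (horizontal axis, linear below 1 and logarithmic above), with 1 point per library. Squares are the inputs and the other symbols the PSF-RIP libraries. In the 12 upper rows all PSF-RIP points lie left of both inputs, and for LINC00898 they lie right of both, at 18.2 to 27.4 CPM against 5.79 and 8.002 CPM.

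In 9 of 90 members (10.0%) all 3 PSF-RIP libraries lay above both inputs, and in 29 (32.2%) below both. Over all genes tested these shares were 30.1% and 25.1%. Besides LINC00898, the higher members with at least 3 plain CPM were LINC00894, LINC00839, LINC01000, LINC00205 and LINC00663, none of which passed the test. LINC00205 stood at 36.7 and 33.8 CPM in the inputs and 64.8, 75.8 and 46.5 CPM in PSF-RIP, a log2 difference of 0.82 (SE 0.37, adjusted p = 0.115). LINC00839 stood at 20.6 and 10.7 CPM in the inputs and 35.5, 31.4 and 24.98 CPM in PSF-RIP (log2 difference 0.94, adjusted p = 0.104). Without No.10-3 replicate 2 both passed, with adjusted p of 0.0165 for LINC00205 and 0.0260 for LINC00839.

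For LINC01000 the inputs stood apart, at 38.0 CPM in the deeper and 14.2 in the shallower one, with 55.8, 44.4 and 40.9 CPM in PSF-RIP (log2 difference 0.82, adjusted p = 0.145). LINC00894 had 3 and 2 counts in the inputs and 28, 16 and 21 in PSF-RIP (log2 difference 1.42, SE 0.72, adjusted p = 0.156). LINC00894 and LINC00893 are now named EOLA2-DT and EOLA1-DT, after neighbouring gene copies, and may share reads. LINC00663 stood at 1.93 and 4.45 CPM in the inputs and 4.77, 4.81 and 4.48 CPM in PSF-RIP, close to the shallower input. The highest fitted differences rested on 1 input count each. The ratio of PSF-RIP to input over the pooled counts was 5.04 for LINC00235 (exact interval 0.827 to 206) and 5.23 for LINC00634 (0.862 to 214).

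Among the lower members that missed the test, LINC00476, now ERCC6L2-AS1, lay nearest to it, at 30.3 and 24.9 CPM in the inputs and 12.4, 14.4 and 14.9 CPM in PSF-RIP (log2 difference -0.99, SE 0.38, adjusted p = 0.0663, or 0.0243 without No.10-3 replicate 2). LINC00662 stood at 12.2 and 11.6 CPM in the inputs and at 3.58, 9.99 and 3.18 CPM in PSF-RIP, so No.10-3 replicate 1 lay close to the inputs (log2 difference -1.18, adjusted p = 0.108). Without that library it passed, with a log2 difference of -1.81 and an adjusted p of 0.0322.

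Of the 10 LINC RNAs with the highest level per length, 8 were not called. On a scale per gene length and library total (FPKM, computed from the counts and plain library totals), LINC01278 was highest with a mean of 27.4 over the 5 libraries, followed by LINC01089 at 21.4, LINC00963 at 19.5, LINC00839 at 16.3, LINC00467 at 15.7 and LINC00667 at 13.5. LINC00205 (10.7), LINC00847 (10.4), LINC01521 (9.70) and LINC01144 (9.29) completed the first 10. The median member stood at 2.204 FPKM and the median of all genes tested at 6.94. LINC00963, an RNA described in the progression of prostate cancer to androgen independence, stood at 62.4 and 42.7 CPM in the inputs and 40.8, 55.1 and 33.8 CPM in PSF-RIP. Its groups overlapped (log2 difference -0.30, SE 0.36, adjusted p = 0.585).

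LINC00667 stood at 45.1 and 45.3 CPM in the inputs and 32.4, 49.2 and 40.7 CPM in PSF-RIP (log2 difference -0.15, adjusted p = 0.789). LINC01089 stood at 37.3 and 32.0 CPM against 30.5, 22.2 and 18.6 CPM, and LINC00847 at 29.0 and 33.8 CPM against 17.6, 25.1 and 23.5 CPM. The PSF-RIP values of both lay below both inputs, but the differences of -0.55 and -0.50 missed the threshold (adjusted p = 0.296 and 0.345). LINC01144 and LINC01521 overlapped between groups, with log2 differences of -0.09 and 0.07 that changed sign when single libraries were left out.

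Gene length tracked the difference from input weakly, with a Spearman's rho of 0.12 across the 90 members and 0.13 across all genes tested, which share the same libraries. Lengths ran from 410 nt for LINC00844 to 12267 nt, with a median of 2250.5 nt over the members and 2148 nt over the 12 called lower. RefSeq classes 87 of the 90 members as long noncoding RNA, 2 (LINC00634 and LINC00672) as protein-coding and 1 (LINC01869) as a transcribed pseudogene. It has renamed 15 members, 6 of them as divergent transcripts (DT) of a neighbouring gene. The members nearest the level limit were LINC02591 at 1.06 plain CPM, LINC00242 at 1.07 and LINC00887 at 1.19, and those just outside were LINC01134 at 0.999, LINC01194 at 0.884 and LINC01431 at 0.845.

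With No.10-3, no LINC RNA changed in PSF-RIP past the test. The 2 treated libraries were compared with the single vehicle library, and edgeR called 0 of 90 members and 0 of all 13321 genes (0%). An unadjusted p under 0.05 was reached by 1 member, LINC02809, and by 506 of all genes (3.80%), and DESeq2 also called 0. The adjusted p of each member named below is 0.997. The median log2 change was 0.04 over the members and 0.03 over all genes. From vehicle, the median member stood at 0.14 in replicate 1 and -0.08 in replicate 2. The median SE of a member's change was 0.81 log2 units, and a change in RNA level in the cells could not be separated from one in recovery by PSF.

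Both changes use the same vehicle library, so agreement between them is a count only. There were 35 members higher in both treated libraries (38.9%, against 33.3% of all genes), 28 lower in both (31.1%, against 32.4%) and 27 on opposite sides. At least 2-fold higher in both were 5 members (5.56%, against 2.22%), and 1 was at least 2-fold lower (1.11%, against 1.13%). The vehicle counts of these 6 RNAs were low, and 35 of all members had under 10 counts with vehicle. The treated pair lay at least 2-fold apart in 10 members (11.1%, against 15.8% of all genes), vehicle and replicate 1 in 18 (20.0%, against 10.0%), and vehicle and replicate 2 in 16 (17.8%, against 17.5%). The 2 inputs lay at least 2-fold apart in 33 members (36.7%, against 16.2%).

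LINC00648, one of the RNAs lower than input, had the most vehicle counts of the RNAs that passed 2-fold in both with the prior count. It had 11 counts with vehicle, 18 in replicate 1 and 59 in replicate 2, or 2.62, 6.66 and 8.52 CPM, a log2 change of 1.53 (SE 0.80). Both treated libraries were above vehicle and below both inputs. LINC00482 stood at 1.67 CPM with vehicle (7 counts) and 4.44 and 4.19 CPM in the treated libraries (log2 change 1.34, SE 0.88). The other 3 had 1 or 2 vehicle counts. The ratio of the pooled treated counts to vehicle was 3.49 for LINC00324 (exact interval 0.819 to 31.2), 6.10 for LINC01106 (0.928 to 258) and 6.54 for LINC00652 (1.01 to 275). LINC02870, the member at least 2-fold lower in both with the prior count, stood at 2.15 CPM with vehicle (9 counts) and 0.740 and 0.578 CPM with No.10-3.

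Of the other RNAs higher in both treated libraries, LINC01234 had 2.38 CPM in the vehicle library (10 counts). It stood at 9.62 and 5.20 CPM in the treated pair, which lay less than 2-fold apart (log2 change 1.58, SE 0.82). LINC00938 stood at 7.39 CPM with vehicle and 13.7 and 13.4 CPM with No.10-3 (log2 change 0.86, SE 0.68). LINC00674 stood at 38.4, 51.0 and 65.4 CPM (log2 change 0.60, SE 0.58), LINC00847 at 17.6, 25.1 and 23.5 CPM and LINC00667 at 32.4, 49.2 and 40.7 CPM, each given for vehicle and replicates 1 and 2. LINC00634, now SMIM45 and protein-coding in RefSeq, stood at 1.19, 1.85 and 2.45 CPM, from only 5, 5 and 17 counts.

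On the other side, LINC00174 had the most counts, at 16.9 CPM with vehicle and 9.99 and 7.07 CPM in the treated libraries (log2 change -1.02, SE 0.63). Its inputs, at 11.6 and 6.22 CPM, spanned the treated values. LINC00852, which overlaps the ghrelin gene GHRL, stood at 7.63 CPM with vehicle and 3.70 and 3.47 CPM with No.10-3 (log2 change -1.10, SE 0.73). LINC00899 stood at 7.63, 4.81 and 4.62 CPM, LINC00893 at 5.96, 3.33 and 2.17 CPM and LINC02593 at 5.72, 1.85 and 2.60 CPM. LINC01869 stood at 4.53, 2.22 and 1.59 CPM, LINC00235 at 3.34, 0.740 and 1.44 CPM and LINC02809 at 2.86, 1.48 and 0.433 CPM, with log2 changes of -1.30, -1.48 and -1.83. In each of these 8 RNAs both treated libraries lay below vehicle, by less than the test could call.

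**Figure D4:**
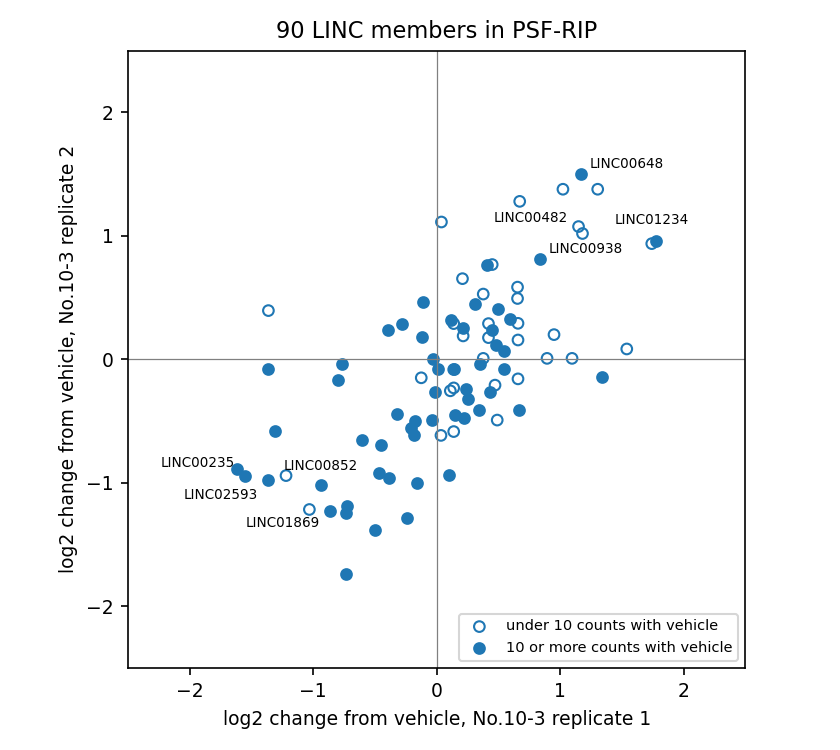
Log2 change from vehicle in PSF-RIP of each of the 90 LINC members in No.10-3 replicate 1 (horizontal axis) and replicate 2 (vertical axis), from TMM-scaled log2 CPM with a prior count of 2. Both axes share the single vehicle library, open circles have under 10 counts there, and names mark the 4 furthest members on each side among those with at least 3 plain CPM in PSF-RIP. The points scatter around 0, with 35 members above 0 on both axes and 28 below.

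Some LINC loci were later found to encode small proteins and have left the class by name. Of 8 such genes listed, 6 were tested and 3 were called lower in PSF-RIP than in input, with 0 higher, where 10.4% and 10.0% of all genes were called. SMIM30, a small membrane protein once named LINC00998, stood at 66.3 and 115 CPM in the inputs and 9.06, 12.6 and 12.8 CPM in PSF-RIP (log2 difference -2.97, SE 0.37, adjusted p = 7.32e-06). SMIM26, a mitochondrial protein once named LINC00493, stood at 23.2 and 56.0 CPM against 14.1, 22.2 and 12.4 CPM (log2 difference -1.29, adjusted p = 0.0299). NBDY, a protein of mRNA decapping once named LINC01420, stood at 20.6 and 37.3 CPM against 5.96, 16.3 and 8.66 CPM (log2 difference -1.51, adjusted p = 0.0203). MTLN, SMIM10L2A and SMIM10L2B were not called, with log2 differences of -0.57, 0.79 and 0.47. The median of the 6 was -0.93, against 0.08 over all genes. With No.10-3, 0 of the 6 were called.

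Of 8 LINC genes listed for prostate cancer, 5 had 0 counts in all libraries, LINC00304 had 5 counts with vehicle PSF-RIP alone, and the other 2 are LINC00844 and LINC00963, given above. Of 23 well-studied long noncoding RNAs with other names, 14 were tested, with 3 called lower in PSF-RIP and 0 higher (10.4% and 10.0% of all genes), and a median log2 difference of -0.77 (0.08 over all genes). CRNDE stood at 27.0 and 23.1 CPM in the inputs and 9.06, 6.66 and 7.36 CPM in PSF-RIP (log2 difference -1.70, adjusted p = 0.00607). DANCR stood at 202 and 241 CPM against 58.4, 93.2 and 53.3 CPM (log2 difference -1.70, adjusted p = 0.00282). TERC, the RNA template of telomerase, stood at 120 and 154 CPM against 87.9, 54.4 and 10.1 CPM, with the PSF-RIP libraries far apart (log2 difference -1.44, SE 0.50, adjusted p = 0.0430). NEAT1, counted over a gene length of 3735 nt, stood at 1591 and 1329 CPM against 512, 549 and 951 CPM. That is below both inputs but not past the test (log2 difference -1.12, SE 0.42, adjusted p = 0.0572). Counts per gene do not tell its transcript forms apart, so the form that holds paraspeckles was not measured by itself. With No.10-3, 0 of the 14 were called.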

How the data were processed

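RIP-seq counts of 5 libraries were analysed. The authors deposited 1 table with a whole-number count per Entrez gene and library, taken as raw counts, with a gene length. The submitters' processing notes name TopHat2 2.1.0, Bowtie2 2.2.6, Bowtie and hg19 without roles. How reads were counted, by strand or over several matches, is not given in the sources used here, so overlapping genes and gene copies may share counts. The labels name a stranded library kit. The deposited FPKM columns were not used.

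The 13321 genes whose CPM averaged 1 or more over the 5 libraries were tested. edgeR 4.0.16 (R 4.3.3; TMM, glmQLFit, glmQLFTest, Benjamini-Hochberg adjustment, threshold 0.05) compared the 3 PSF-RIP libraries with the 2 inputs (3 residual degrees of freedom), and the 2 No.10-3 with the vehicle PSF-RIP libraries (1 degree of freedom, from the treated pair). An SE is the log2 difference divided by the square root of the F statistic. Ratios of pooled counts carry exact 95% intervals for counting error. The change in recovery over input with No.10-3 was not analysed here, since the inputs' treatment is not told apart. DESeq2 1.42.0, other scalings and filters, and leaving out libraries were the alternatives. The fits were tested on simulated counts with 100 changed genes at each size of change. Against input, 64 changes of 2 log2 units and 85 of 3 log2 units were recovered. For No.10-3 against vehicle, 40 and 88 were recovered, so changes of 2 log2 units were often missed. The changed genes were drawn at random from all 13321 genes, whose median level is above that of the members. Recovery among the members alone was not measured.

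The members, lists and rules were chosen with earlier results of these data known. Named are the 10 members with the highest FPKM; all called members, up to 15 per direction; for PSF-RIP over input, up to 10 per direction with at least 3 plain CPM and no overlap between groups; for No.10-3, 8 per direction by the smaller of the changes in both treated libraries, with at least 3 plain CPM in PSF-RIP; the 3 members on each side of 1 CPM; and examples from the lists. LINC02870, LINC01106, LINC00652 and LINC00324 (for No.10-3) were named after their values were seen, to spell out small counts. Gene names, classes and overlaps came from RefSeq of GRCh38.p14, matched by Entrez ID for all 90 members. Overlaps are between genes of that assembly, by its own coordinates, which are not printed since the notes name another build, hg19.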

Additional observations from a re-analysis of the deposited data

How the results depend on the processing

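Scaling by library totals alone, without TMM, turned the comparison with input: 65 members were called higher and 0 lower, the member median was 2.05, and 11613 genes were called higher and 49 lower, against 1335 and 1384 with TMM. Under it the log2 differences of LINC00476 (1.36), LINC00674 (1.33), LINC00963 (2.03), LINC01089 (1.79), LINC00667 (2.19), LINC01144 (2.24), LINC00847 (1.85) and LINC01278 (0.84) turned positive and were called. Those of LINC00938 (0.77), LINC00909 (0.94), LINC00467 (0.66), LINC00648 (0.58), LINC00882 (0.13), LINC01011 (0.18) and LINC00662 (1.14) turned positive but were not called. The differences of LINC00844, LINC00324, LINC00115 and LINC01560 stayed negative and were not called. The member median minus the median of all genes was -0.54 to -0.16. It stayed below 0 in the reported fit and each alternative for which it was computed. The value of -0.54 came from genes with at least 1 CPM in the inputs, a choice that itself lowers the difference. The value of -0.16 came from the members that overlap no other gene, against all genes. Leaving out 1 library gave 0 to 3 members called higher and 4 to 15 lower, with 0 and 4 without the shallower input and 3 higher without No.10-3 replicate 2. Over all genes it gave 88 to 2421 called higher and 527 to 2431 lower. The numbers for the other libraries were 358 and 807 without the deeper input, 638 and 869 without vehicle PSF-RIP, and 656 and 844 without No.10-3 replicate 1. With No.10-3 PSF-RIP alone against input, 663 genes were called higher and 866 lower. LINC00115, LINC00324 and LINC01560 stayed called lower under every alternative but library totals in which they were tested; LINC00674, LINC00882 and LINC00909 lost their call under 6, 5 and 6 of the alternatives. The member median was -0.55 over members with at least 1 CPM in the inputs and -0.0797 over members overlapping no other gene; both choices, and scaling by the protein-coding total (11 members lower, 1 higher), were made after seeing the data. For No.10-3 against vehicle no alternative called a member. Leaving out 1 library there, in a fit that pools the spread with the inputs, gave 0 to 507 genes higher and 0 to 365 lower, and member medians of -0.10 to 0.21; without No.10-3 replicate 2 it called 20 and 6 genes. Leaving out 1 library changed the sign of the uncalled differences from input of LINC00963 (-0.54 to 0.012, above 0 without the deeper input), LINC01144 (-0.32 to 0.14, above 0 without the shallower input or No.10-3 replicate 2) and LINC01521 (-0.26 to 0.43, below 0 without the deeper input or No.10-3 replicate 1). The causes were not tested. The vehicle library could not be left out of the comparison with No.10-3. No paired analysis was possible because the input columns do not say which treatment they hold and vehicle PSF-RIP has 1 library. Of the members, 45 had 10 or fewer counts over both inputs, which limits what the comparison with input can call.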
